A study of Mus musculus with 21 samples.

Results

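Troponin is the calcium switch of the muscle thin filament. The genes described here are those for troponin T, I and C, listed by symbol with earlier results of these data known. They are Tnnt1, Tnnt2, Tnnt3, Tnni1, Tnni2, Tnnc1 and Tnnc2, with every array probe annotated to them. A probe was matched for 6 of the 7 genes, 1 probe each, out of 45281 probes on the array, and all 6 were among the 27870 probes kept as above background in at least 3 arrays. Tnnt2, cardiac troponin T, had no matched probe and was not analysed here. The samples were 21 cultures of C2C12, an immortalised mouse myoblast line, in 7 groups of 3. At day 6 of differentiation there were myotubes (MTs) carrying shRNA against NET39 (the product of Plpp7), against TMEM38A, against WFS1 or against TMEM214, MTs carrying control shRNA, and untransduced MTs. Untransduced myoblasts (MBs) were taken at day 0. The shRNA lines were made stable in MBs by lentivirus and puromycin, so a knockdown (KD) was in place before differentiation began, and the number of hairpins or clones behind a line is not given in the sources used here. The labels call the control a non-target shRNA while the array table and the study's legends call it empty, so what it carried is not settled. All MTs were kept in 2% horse serum with 1 µM tetrodotoxin, which stops contraction, added at 72 h by the labels and later by the study's methods, and were detached by partial trypsinisation to leave mononuclear cells behind.

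In striated muscle, troponin T anchors the complex to tropomyosin, troponin I holds back the actin-myosin interaction at rest, and troponin C binds the calcium that releases it. Each subunit has isoforms of slow and of fast fibres: Tnnt1, Tnni1 and Tnnc1 are the slow ones, with Tnnc1 also used in heart, and Tnnt3, Tnni2 and Tnnc2 the fast ones. Cultured MTs are known to express slow and fast forms side by side, and the isoforms are sorted by fibre later, with innervation. In mouse the genes lie in neighbouring T and I loci. By RefSeq (GRCm38.p6), Tnnt1 has no gene between it and Tnni3, the cardiac troponin I, on chromosome 7, Tnni2 and Tnnt3 on chromosome 7 have 1 gene between them (Lsp1), Tnni1 and Tnnt2 on chromosome 1 have 1 (Lad1), and Tnnc1 and Tnnc2 lie apart on chromosomes 14 and 2.

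The troponin probes were among the brightest on every MT array. Over the 18 MT arrays, and over 45281 probes ranked by intensity, Tnnc1 ranked between 1 and 39, Tnnc2 between 2 and 53, Tnni2 between 2 and 74, Tnnt1 between 21 and 116, Tnnt3 between 52 and 238 and Tnni1 between 171 and 403. Quantile normalization gives every array the same set of values, so at such ranks a normalised level is set by the place of the probe on its array. Tnnc1 was the brightest probe on all 3 untransduced MT arrays and therefore has the same normalised log2 intensity, 14.64, on each. The 15 shRNA arrays were brighter than the 6 untransduced arrays, with maximum intensities of 27309 to 35466 and of 15641 to 18735, and mean intensities of 301 to 533 and of 172 to 289. MB replicate 1 stood apart, with 1136 probes over 1 log2 unit from the mean of the other MB replicates, against 53 between replicates 2 and 3. The gene aimed at was called lower in each KD, with log2 ratios over control shRNA MTs of −4.45 for Tmem38a, −4.17 for Wfs1, −1.79 for Plpp7 and −1.17 for Tmem214.

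The first comparison was the rise of the troponins in myogenesis, untransduced MTs over untransduced MBs. All 6 measured genes were higher in MTs, by 47.7 to 219 times, and a probe counted as called when its limma adjusted p was below 0.05 and its log2 ratio above 0.5 in size. The same rule called 24.7% of all kept probes in either direction, and 11.8% of all kept probes as higher in MTs. The MT and MB groups did not overlap for any of the 6, against 36.3% of kept probes. These were bulk cultures, in which fewer cells of a type and less RNA per cell cannot be told apart.

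Among the troponin T genes, Tnnt3, the fast form, had normalised log2 intensities of 13.85, 14.06 and 13.97 on MT arrays, against 6.21, 6.11 and 6.23 on MB arrays. The log2 ratio was 7.78 (SE 0.08, 95% interval 7.60 to 7.95, limma adjusted p = 2.69e-21), the largest of the 6 in these values, while under median scaling Tnnc2, at 7.23, exceeded Tnnt3, at 6.95. The deposited intensities of Tnnt3 on MB arrays, 105, 92.2 and 84.8, lay just over the background levels of those arrays, 98.7, 90.0 and 82.8, and its fold ran from 124 to 415 times over 11 other settings. Tnnt1, the slow form, read 14.10, 14.37 and 14.32 on MT arrays, against 7.85, 8.69 and 8.84 on MB arrays. Its log2 ratio was 5.80 (SE 0.16, interval 5.46 to 6.15, adjusted p = 8.63e-16), and 5.50 without MB replicate 1, the lowest of the MB arrays. Tnnt1 was therefore already measured clearly over background in MBs, at intensities of 245 to 355, before differentiation was induced.

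Of the troponin I genes, Tnni2, the fast form, read 14.17, 14.29 and 14.21 on MT arrays, against 7.00, 7.28 and 7.14 on MB arrays, a log2 ratio of 7.08 (SE 0.10, interval 6.88 to 7.28, limma adjusted p = 2.83e-20). Tnni1, the slow form that also predominates in embryonic muscle, read 12.55, 12.78 and 13.16 on MT arrays, against 6.43, 6.09 and 6.24 on MB arrays. Its log2 ratio was 6.58 (SE 0.12, interval 6.32 to 6.83, adjusted p = 1.45e-18). Tnni1 varied most among untransduced MTs, where its SD was 0.31 (n = 3), and like Tnnt3 it lay near background in MBs. Since binding differs between probes, levels of different probes are not compared as amounts of RNA.

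Of the troponin C genes, Tnnc2, the fast form, read 14.59, 14.59 and 14.43 on MT arrays, against 6.72, 7.26 and 7.37 on MB arrays, a log2 ratio of 7.43 (SE 0.13, interval 7.15 to 7.70, limma adjusted p = 1.02e-18). Tnnc1, the slow and cardiac form, read 14.64 on each MT array, against 8.75, 9.25 and 9.21 on MB arrays. Its log2 ratio was 5.57 (SE 0.11, interval 5.35 to 5.80, adjusted p = 2.08e-18). Tnnc1 was clearly over background on MB arrays, at intensities of 306 to 519. On untransduced MT arrays it was at the top of the scale, and Tnnc2 was next to it on 2 of 3, so the size of both ratios is limited by the array maximum.

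Myogenesis was also described within each subunit. The slow minus fast difference, set to 0 at the control shRNA mean, was −0.32, −0.27 and −0.22 for troponin T on untransduced MT arrays, against 1.06, 2.00 and 2.04 on MB arrays. For troponin C it was −0.03, −0.03 and 0.13 on MT arrays, against 1.95, 1.91 and 1.76 on MB arrays. The shift was narrower for troponin I, at −0.03, 0.07 and 0.54 on MT arrays, against 1.02, 0.39 and 0.68 on MB arrays, where the highest MT array and the lowest MB array overlapped. These differences between probes are given as a description, with no test, and for troponin C the array maximum bounds both genes in MTs.

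**Figure D1:**
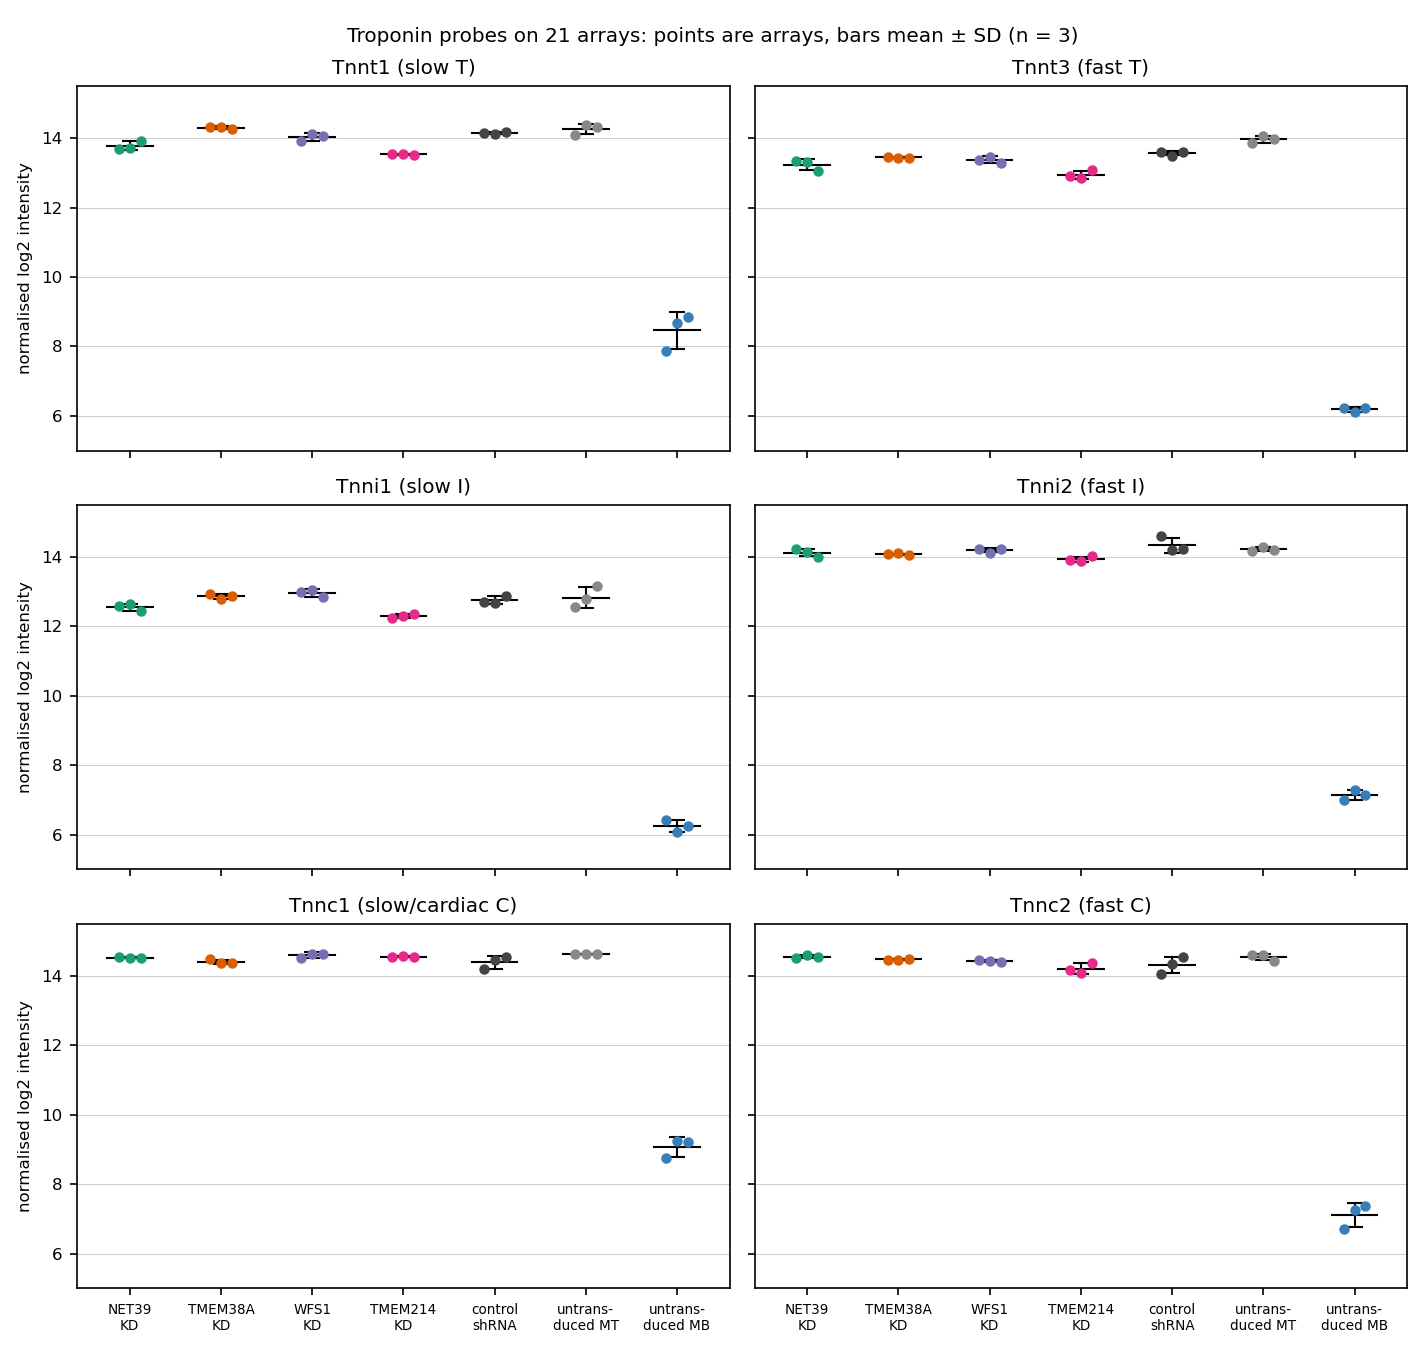
Normalised log2 intensity (vertical axis, starting at 5) of each troponin probe in the 7 groups on the horizontal axis, with points for arrays and bars for mean ± SD (n = 3). All 18 MT arrays lie at 12.25 or above for every gene, while the 3 MB arrays lie between 6.09 and 9.25.

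The 4 promoters printed here belong to genes that rose together and have an entry in the RefSeq promoter table (GRCm38.p6), which held 5 of the 7 genes. For Tnni1, which has a second entry, the first is shown. Shown are the 250 bases before the annotated start, in the direction of transcription. Capitals mark matches, searched on both strands, to the E-box CANNTG, the core bound by MyoD family factors, to the MCAT motif CATTCC bound by TEAD factors, and to the TATA box TATAAA.
Tnnt1 (slow troponin T), chr7:4515976-4516225, minus strand: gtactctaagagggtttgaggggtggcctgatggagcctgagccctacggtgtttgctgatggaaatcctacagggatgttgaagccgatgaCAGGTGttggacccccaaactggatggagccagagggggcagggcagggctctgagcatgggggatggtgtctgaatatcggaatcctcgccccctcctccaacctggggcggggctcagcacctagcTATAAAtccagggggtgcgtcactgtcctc
Tnni1 (slow troponin I), chr1:135799171-135799420, plus strand: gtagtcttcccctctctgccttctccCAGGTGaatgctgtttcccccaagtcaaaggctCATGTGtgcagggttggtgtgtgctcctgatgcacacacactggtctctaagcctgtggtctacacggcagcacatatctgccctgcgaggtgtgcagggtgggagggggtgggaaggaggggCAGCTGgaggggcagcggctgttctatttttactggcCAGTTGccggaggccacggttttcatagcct
Tnnc1 (slow and cardiac troponin C), chr14:31208062-31208311, plus strand: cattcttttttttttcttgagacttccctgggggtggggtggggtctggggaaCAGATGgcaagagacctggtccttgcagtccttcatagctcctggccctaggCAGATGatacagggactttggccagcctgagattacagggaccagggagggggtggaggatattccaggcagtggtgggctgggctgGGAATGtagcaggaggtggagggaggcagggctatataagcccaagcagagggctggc
Tnnc2 (fast troponin C), chr2:164779735-164779984, minus strand: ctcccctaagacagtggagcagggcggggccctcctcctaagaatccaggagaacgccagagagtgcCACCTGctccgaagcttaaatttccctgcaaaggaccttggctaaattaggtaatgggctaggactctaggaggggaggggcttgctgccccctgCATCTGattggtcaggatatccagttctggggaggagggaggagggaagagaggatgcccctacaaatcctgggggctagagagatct
Tnni1 held 4 E-boxes in this window, Tnnc1 and Tnnc2 held 2 each and Tnnt1 held 1, and no matches overlapped. An E-box is common, being present in 66.2% of 32841 promoter windows of the same length. The TATA box of Tnnt1 starts 30 bases before the start site, and 12.4% of windows hold that motif. Only the exact letters TATAAA were searched, so variants such as the tatataa in the Tnnc1 window were not marked. The MCAT match of Tnnc1, on the strand opposite to the one shown and so printed as its reverse complement, starts 58 bases before the start, and 12.6% of windows hold one. The MEF2 consensus, present in 2.92% of windows, had 0 matches in these 4, which says only that its letters are not in these bases.

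Genes that work with troponin were tested in the same comparison. Of 16 other thin filament genes tested, 11 were higher in MTs than in MBs and 1 lower, with a median log2 ratio of 2.62, against −0.02 for all kept probes. Each list gene was read by 1 probe, its brightest kept one, and which transcripts a probe covers was not examined. The largest rise was that of Actc1, cardiac alpha-actin, at 6.79. The fall was that of the probe of Tpm1, an alpha-tropomyosin, which dropped by 1.26. All 11 slow fibre partners with a kept probe were higher, led by myoglobin (Mb) at 7.37, as were all 13 fast fibre partners, led by the fast calcium pump Atp2a1 at 6.55. Of 12 regulators of muscle genes tested, 5 were higher and 1 lower, with Mef2c at 5.35 and Eya1 at −1.17. As to the culture labels, 6 of 6 MT markers tested were higher in MTs and 4 of 6 markers of cycling or undifferentiated MBs were lower. Tnni3, whose gene adjoins Tnnt1, stayed near background. Its mean was 6.29 ± 0.14 in MTs and 6.01 ± 0.05 in MBs (SD, n = 3 each), a log2 ratio of 0.28 (adjusted p = 0.00978) that is under the size limit.

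The KD comparisons asked whether MTs depleted of a muscle nuclear envelope protein carried a different troponin complement. Each KD was set against control shRNA MTs. The depletion of TMEM214 was the only KD in which troponin probes were called, with 2 of 6 lower, Tnnt1 and Tnnt3, against 7.31% of kept probes called in either direction and 3.39% lower. The median log2 ratio of the 6 was −0.42, against −0.01 for all kept probes. Both troponin T genes and both troponin I genes had an adjusted p below 0.05, and neither troponin C gene did. These 4 of 6, all lower, compare with 7.31% of kept probes, and the same 4 had groups that did not overlap, against 38.5% of kept probes. This count depended on the normalization, as under median scaling only Tnnt1 kept a limma adjusted p below 0.05.

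Tnnt3 read 12.91, 12.84 and 13.07 on TMEM214 KD arrays, against 13.60, 13.50 and 13.60 on control arrays, and fell by 0.62 on the log2 scale (SE 0.08, interval −0.80 to −0.44, limma adjusted p = 5e-05). Tnnt1 read 13.54, 13.55 and 13.52 on TMEM214 KD arrays, against 14.14, 14.12 and 14.17 on control arrays, and fell by 0.60 (SE 0.16, interval −0.95 to −0.26, adjusted p = 0.0178). All 3 KD arrays lay below all 3 control arrays for both genes. The deposited intensities of Tnnt1 were lower too, 15878, 15121 and 16439 on TMEM214 KD arrays, against 25662, 20517 and 21527 on control arrays, although the brightest probe of each TMEM214 KD array was brighter than that of each control array. The call on Tnnt1 was lost when any of the 3 TMEM214 KD arrays or control replicate 3 was left out, at adjusted p of 0.0517 to 0.0597, with log2 ratios of −0.61 to −0.59. When arrays were scaled to a common median instead of quantile-normalised, neither gene was called, Tnnt1 at −0.50 (adjusted p = 0.0163) and Tnnt3 at −0.53 (adjusted p = 0.0569).

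The troponin I genes had smaller ratios. Tnni1 read 12.25, 12.31 and 12.35 on TMEM214 KD arrays, against 12.69, 12.68 and 12.88 on control arrays, a log2 ratio of −0.45 (SE 0.12, interval −0.70 to −0.19, limma adjusted p = 0.0171). Tnni2 read 13.90, 13.88 and 14.02 on TMEM214 KD arrays, against 14.59, 14.19 and 14.22 on control arrays, a ratio of −0.40 (SE 0.10, interval −0.60 to −0.20, adjusted p = 0.00768). Neither gene's groups overlapped, and both ratios were under the size limit for a call. Under median scaling Tnni1 was at −0.38 (limma adjusted p = 0.193) and Tnni2 at −0.18 (adjusted p = 0.445). With an offset of 16 the adjusted p of Tnni1 was 0.0558. The deposited intensities of Tnni2 overlapped, at 21732, 19264 and 22879 on TMEM214 KD arrays, against 29628, 21328 and 22441 on control arrays. For troponin C, Tnnc1 read 14.55, 14.57 and 14.55 on TMEM214 KD arrays, against 14.19, 14.44 and 14.55 on control arrays (0.16, interval −0.06 to 0.38, adjusted p = 0.384), and Tnnc2 differed by −0.11 (interval −0.39 to 0.17, adjusted p = 0.70). These intervals span −0.39 to 0.38 for troponin C. Measured from the MB mean on the log2 scale, the rise in TMEM214 KD MTs was 89.4% of that in control shRNA MTs for Tnnt1 and 91.6% for Tnnt3. It was 93.1% for Tnni1, 94.4% for Tnni2, 98.5% for Tnnc2 and 103% for Tnnc1. As folds over MBs, Tnnt1 stood at 33.8 times in TMEM214 KD MTs and 51.3 times in control MTs, and Tnnt3 at 108 and 167 times. The MB levels of Tnnt3 and Tnni1 under these shares lay near background.

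In the same cultures 4 of 6 fibroblast markers tested were called higher than in control MTs, with summed intensities of 4818 to 5141 in TMEM214 KD MTs and 1294 to 2077 in control MTs, as were 2 of 6 cycling MB markers, with sums of 1298 to 1370 and of 928 to 1216. Of 6 MT markers 2 were lower, Ckm and Ttn, with summed intensities of 55980 to 58840 in TMEM214 KD MTs and 57770 to 71960 in control MTs. The part of these in the troponin values was not tested. All 4 shRNA targets were called lower in this line, not only Tmem214.

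NET39 KD had 0 of 6 troponin probes called, against 7.37% of kept probes. Tnnt3 read 13.34, 13.31 and 13.05 on NET39 KD arrays, against 13.60, 13.50 and 13.60 on control arrays, a log2 ratio of −0.33 (SE 0.08, interval −0.51 to −0.16, limma adjusted p = 0.0115) that is under the size limit. Tnnt1 was at −0.36 (interval −0.70 to −0.02, adjusted p = 0.173). Tnnt1, Tnnt3 and Tnni1 lay wholly below the control arrays, 3 of 6 genes without overlap against 35.1% of kept probes. The other 4 genes lay between −0.21 and 0.24 with adjusted p of 0.181 or more. NET39 KD MTs also carried the fibroblast markers at a summed intensity of 4482 to 8974, against 1294 to 2077 in control MTs, with 4 of 6 called higher, and 3 of 6 cycling MB markers called higher, whose part was not tested.

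TMEM38A KD also had 0 of 6 called, against 7.43% of kept probes. The lowest adjusted p was that of Tnni2, which read 14.07, 14.10 and 14.06 on TMEM38A KD arrays, against 14.59, 14.19 and 14.22 on control arrays (−0.25, SE 0.10, interval −0.46 to −0.05, adjusted p = 0.0951). Of the 6 genes 3 did not overlap the control arrays (Tnnt1, Tnnt3 and Tnni2), against 35.7% of kept probes. Slow Tnnt1 was at 0.16 (interval −0.18 to 0.51, adjusted p = 0.643), slow Tnni1 at 0.12 and fast Tnnt3 at −0.12. Fibroblast markers went the other way here, with 4 of 6 called lower. WFS1 KD had 0 of 6 called, against 6.73% of kept probes, with ratios of −0.19 (Tnnt3, interval −0.37 to −0.02, adjusted p = 0.154) to 0.21 (Tnni1, interval −0.05 to 0.46, adjusted p = 0.308). Only Tnnt3 did not overlap the control arrays, 1 of 6 against 36.4% of kept probes.

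At an unadjusted limma p below 0.05, 3 of 6 genes passed in NET39 KD (Tnnt1, Tnnt3 and Tnni2), against 24.8% of kept probes. In TMEM38A KD 1 of 6 passed (Tnni2), against 24% of kept probes, and in WFS1 KD 1 of 6 (Tnnt3), against 25.4%. Their ratios were all negative. The bound farthest from 0 among the 95% intervals of the 6 genes was −0.70 log2 units in NET39 KD, 0.51 in TMEM38A KD and 0.46 in WFS1 KD.

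**Figure D2:**
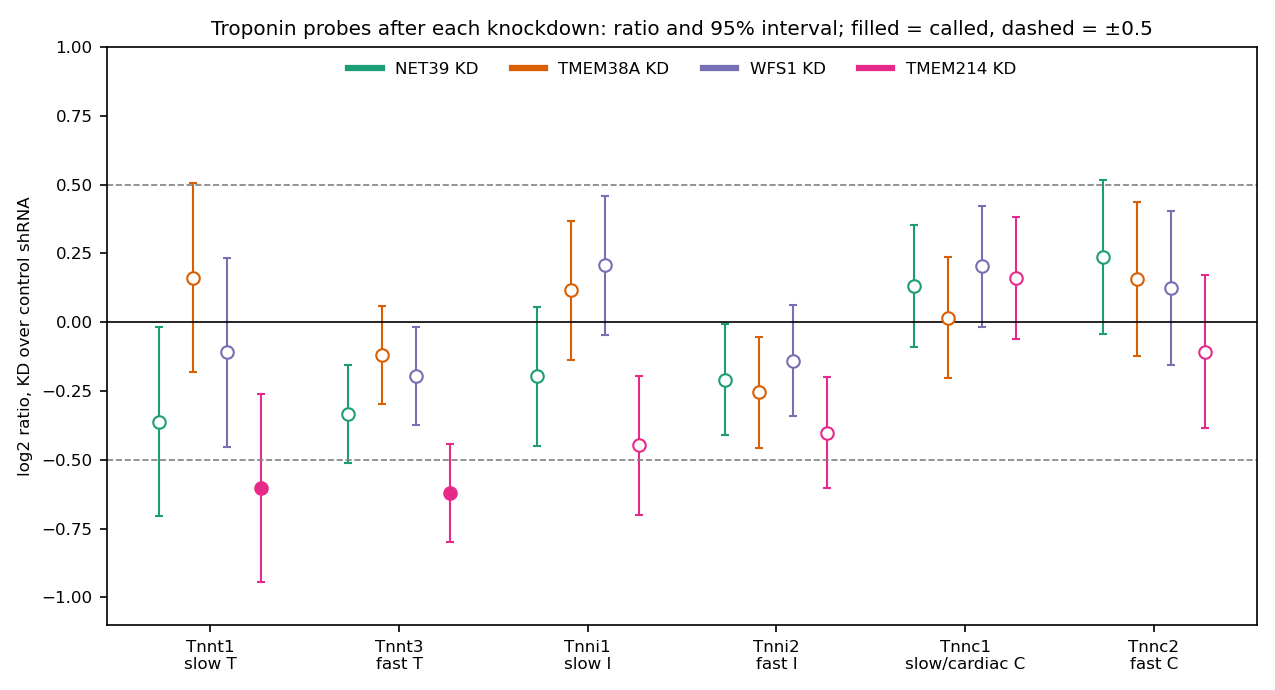
Log2 ratio of each KD over control shRNA MTs (vertical axis) for the 6 troponin probes (horizontal axis), with 95% intervals from the limma model, 3 arrays a group. Filled points mark the 2 called probes, Tnnt1 at −0.60 and Tnnt3 at −0.62 in TMEM214 KD, and dashed lines mark the size limit of 0.5.

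Set against each other, the 4 KDs gave 6 pairs and 36 tests of a troponin probe, of which 5 were called, against 9.18% of such tests over all kept probes. TMEM38A KD exceeded TMEM214 KD in Tnnt1 by 0.76 (SE 0.16, interval 0.42 to 1.11, limma adjusted p = 0.00177), in Tnnt3 by 0.50 (SE 0.08, interval 0.33 to 0.68, adjusted p = 0.000188) and in Tnni1 by 0.56 (SE 0.12, interval 0.31 to 0.82, adjusted p = 0.00178), where 11.9% of kept probes were called, 5.75% higher. WFS1 KD exceeded TMEM214 KD in Tnni1 by 0.65 (SE 0.12, interval 0.40 to 0.91, adjusted p = 0.000776), with 7.61% of kept probes called, 3.98% higher. The arrays of Tnni1 were 12.99, 13.05 and 12.83 in WFS1 KD MTs and 12.25, 12.31 and 12.35 in TMEM214 KD MTs. For NET39 KD over TMEM38A KD the log2 ratio of Tnnt1 was −0.52 (SE 0.16, interval −0.87 to −0.18, adjusted p = 0.0246), with 13.3% of kept probes called, 6.58% lower. No troponin was called in NET39 over WFS1 KD (8.92% of kept probes called), NET39 over TMEM214 KD (3.74%) or TMEM38A over WFS1 KD (9.63%). Of these 5 differences, that in Tnnt1 between TMEM38A and TMEM214 KD was also called under median scaling, which ended the other 4, and the Tnnt1 difference between NET39 and TMEM38A KD lost its call without any of 5 of the 6 arrays (adjusted p of 0.0534 to 0.0891). The Tnnt3 difference, just over the size limit, went to between 0.45 and 0.50 without TMEM38A KD replicate 1 or TMEM214 KD replicates 1 or 2. Fibroblast and cycling MB markers also differed in the same pairs. In TMEM38A over TMEM214 KD 4 of 6 fibroblast markers and 4 of 6 cycling MB markers were lower, in WFS1 over TMEM214 KD 2 of 6 of each were lower, and in NET39 over TMEM38A KD 4 of 6 of each were higher. Their summed intensities were 697 to 769 (fibroblast) and 698 to 741 (cycling MB) in TMEM38A KD, 1726 to 3297 and 725 to 916 in WFS1 KD, 4482 to 8974 and 1492 to 2185 in NET39 KD, and 4818 to 5141 and 1298 to 1370 in TMEM214 KD. Their part in the troponin differences was not tested.

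**Figure D3:**
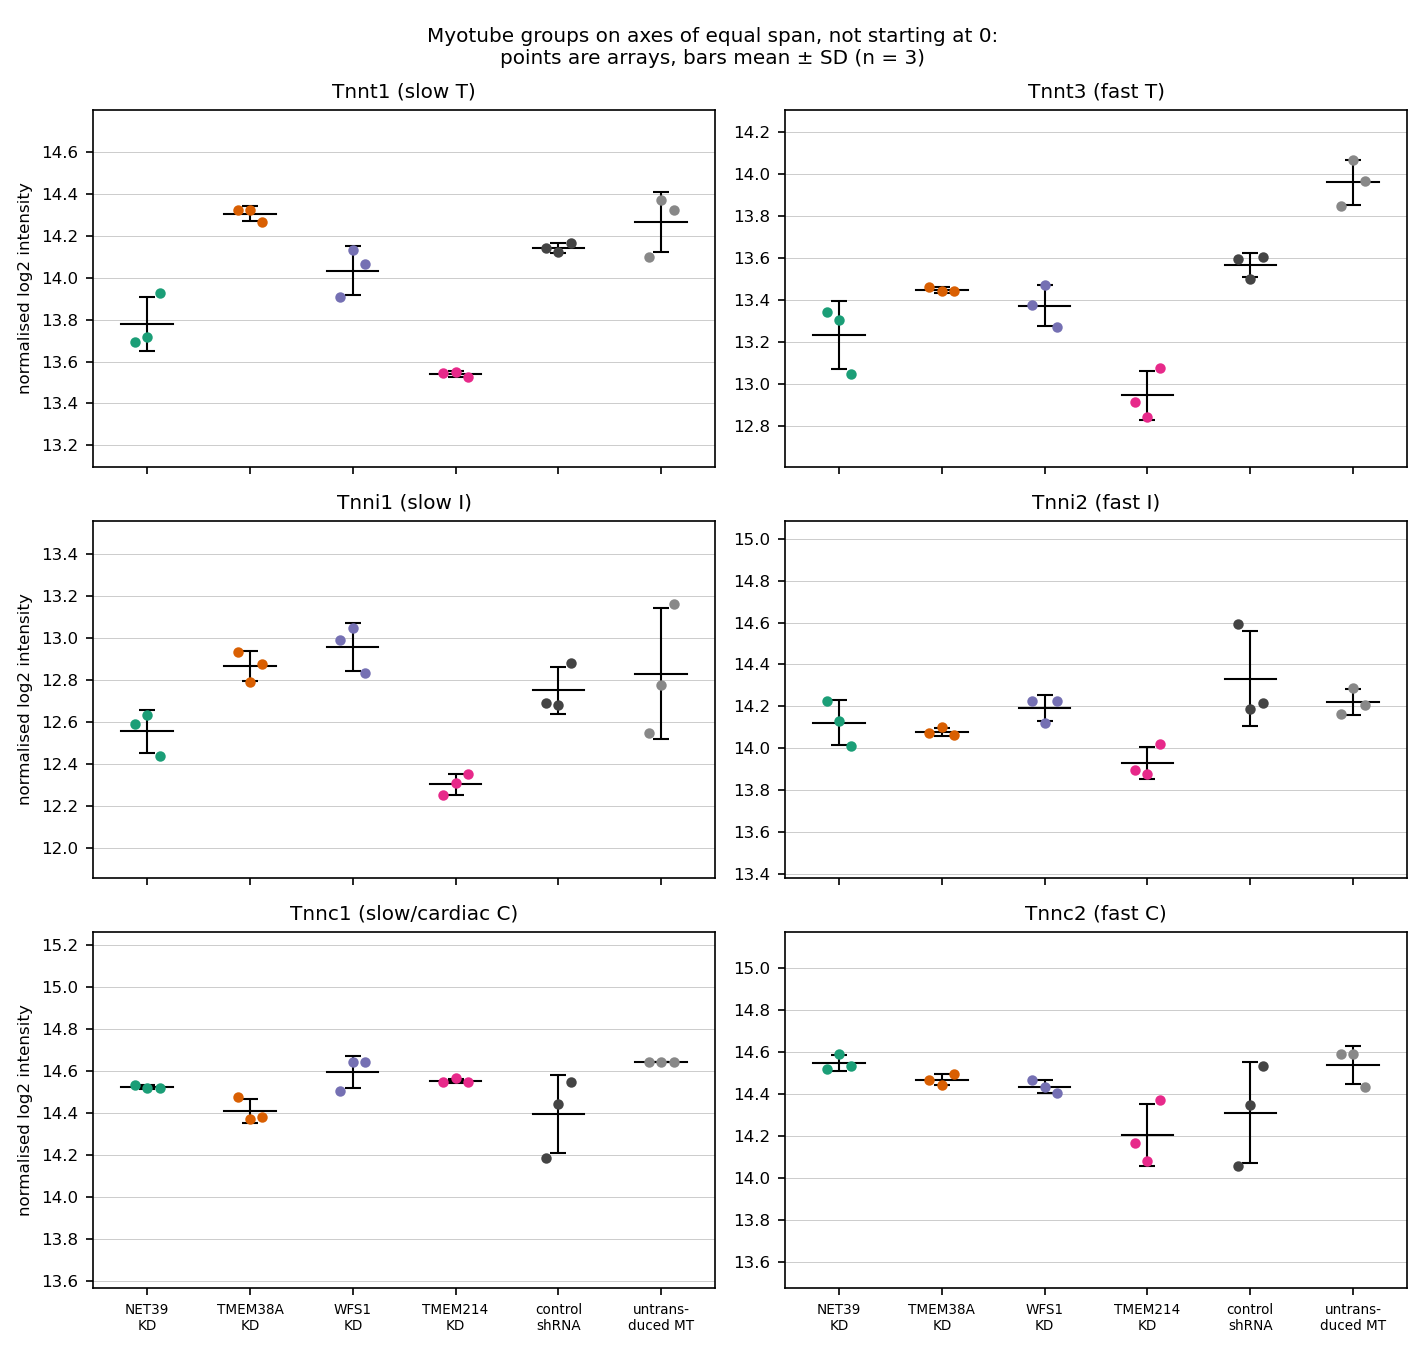
Normalised log2 intensity (vertical axes of equal span, not starting at 0) of each troponin probe in the 6 MT groups, with points for arrays and bars for mean ± SD (n = 3). TMEM214 KD arrays are the lowest for Tnnt1, at 13.52 to 13.55, for Tnni1, at 12.25 to 12.35, and in mean for every gene but Tnnc1.

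Ordered by level, MBs came last for all 6 genes and differed from the next group in 6 of 6. TMEM214 KD had the lowest MT mean for Tnnt1, Tnnt3, Tnni1, Tnni2 and Tnnc2, and control shRNA MTs for Tnnc1. The highest MT mean was in TMEM38A KD for Tnnt1, untransduced MTs for Tnnt3 and Tnnc1, WFS1 KD for Tnni1, control shRNA for Tnni2 and NET39 KD for Tnnc2. None of the 30 pairs of MT groups next to each other in these orders was called, and 2 of the 30, both in Tnnt3, had an adjusted p below 0.05. Over all 15 pairs of MT groups 6 were called for Tnnt3, 4 for Tnnt1, 3 for Tnni1 and 0 for Tnni2, Tnnc1 and Tnnc2, against 9.26% of such tests over all kept probes. Of those calls 3 in each of Tnnt3, Tnnt1 and Tnni1 involved TMEM214 KD. The Tnnt3 calls also included every KD against untransduced MTs, whose arrays were dimmer than the shRNA arrays.

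The KD values of the troponins were set beside those of the slow and fast genes they are usually grouped with. Over the 4 KDs, 2 of 24 troponin tests were called (8.33%), near the 7.21% of all kept probes, against 27 of 44 tests of slow fibre partners (61.4%) and 23 of 52 of fast fibre partners (44.2%). The range of the 6 MT group means ran from 0.25 (Tnnc1) to 1.02 (Tnnt3) log2 units for the troponins, whereas for all 11 slow partners it exceeded 1.02, from 1.06 (Atp2a2) to 5.43 (Myl2), and for 8 of 13 fast partners. The median range over all kept probes was 0.35. Since the KDs share the control arrays, the counts are not independent, and no difference between the lists was tested.

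In TMEM38A KD, where no troponin was called, 5 slow partners were higher and 4 lower. Myh7, the slow myosin heavy chain, averaged 10.34 ± 0.13 in KD MTs and 7.00 ± 0.06 in control MTs (SD, n = 3 each), a log2 ratio of 3.35 (SE 0.14, limma adjusted p = 1.18e-11). Casq2, the slow and cardiac calsequestrin, fell most, by 1.17. Of the fast partners 2 were higher and 2 lower, and Myh4, the fastest myosin heavy chain, averaged 7.39 ± 0.09 in KD MTs and 10.86 ± 0.22 in control MTs, and fell by 3.47 (adjusted p = 2.48e-08). Against these myosin differences the slow Tnnt1 stood at 0.16 and the fast Tnni2 at −0.25.

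In WFS1 KD 7 of 11 slow partners were higher and 0 lower, led by Myl3, a slow and ventricular myosin light chain, at 2.65 (adjusted p = 1.07e-11), while slow Tnni1 stood at 0.21 and Tnnt1 at −0.11. Of the fast partners 3 were higher, with perinatal Myh8 at 1.14, and 1 was lower, Actn3 at −0.74. In NET39 KD 1 slow partner was higher (Mybpc1, 1.02) and 3 lower (Myl2 most, at −2.62), and 2 fast partners were higher (Myh4 most, at 1.19) and 4 lower (Mybpc2 most, at −1.53).

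In TMEM214 KD the partners called were all lower, as were both troponins called. Of 11 slow partners 7 were lower and 0 higher, led by the slow myosin-binding protein Mybpc1 at −2.40 (adjusted p = 4.27e-10), and of 13 fast partners 9 were lower and 0 higher, led by the calcium buffer parvalbumin (Pvalb) at −1.60 (adjusted p = 0.0402). Of 16 other thin filament genes 5 were lower, Tpm3 most at −1.24, and 1 was higher, Tpm1 at 1.89. Of 12 regulators 2 were lower and 0 higher: Mef2c, a factor of many sarcomere genes, at −1.63, and Myf6 at −1.16. Tpm1, the single thin filament gene that was higher here, is also expressed in non-muscle cells. It was read by 1 probe, whose transcripts were not examined and which was higher in MBs than in MTs.

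The lists also differ in their place on the array scale, which is no measure of relative RNA amount. The fast partners Mylpf and Myl1, myosin light chains chosen here after their values were seen, were near the top of it (means of 14.40 and 14.33 in control MTs) and had ranges over the MT groups of 0.17 and 0.28. Myh7 and Myl3 were low on it, at 7.00 and 7.05 in control MTs. How far place at the top of the array narrows the troponin ratios was not tested.

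**Figure D4:**
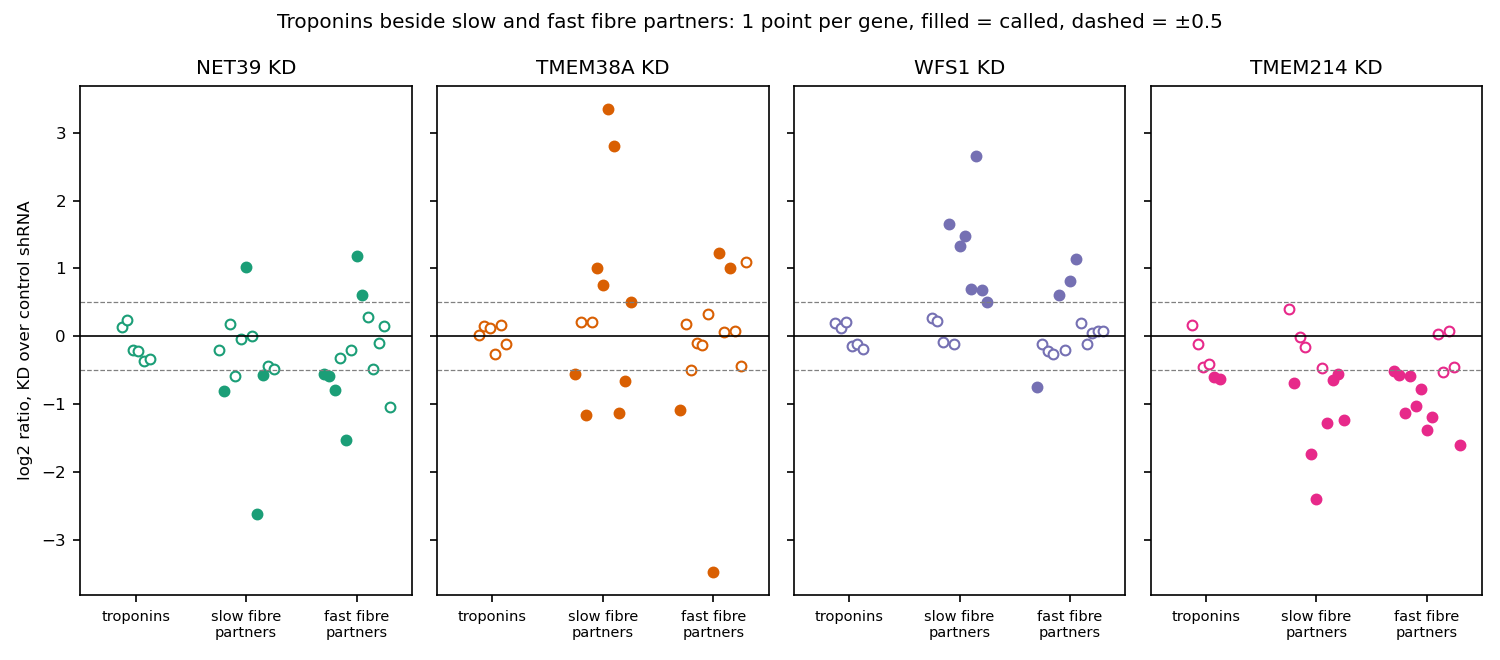
Log2 ratio of each KD over control shRNA MTs (vertical axis) for 6 troponins, 11 slow fibre partners and 13 fast fibre partners, 1 point per gene and filled where called. Troponin points stay between −0.62 and 0.24, while partner points span −3.47 (Myh4) to 3.35 (Myh7), both in TMEM38A KD.

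Within each subunit, the slow minus fast difference was followed on each array to see whether a KD shifted the isoform balance. It is a description, with no test. In TMEM38A KD it was 0.29, 0.31 and 0.25 for troponin T, against −0.03, 0.05 and −0.01 in control MTs, and 0.44, 0.27 and 0.40 for troponin I, against −0.32, 0.07 and 0.25. The arrays did not overlap in either, though for troponin I the gap was narrow, 0.27 against 0.25. Of single kept probes 35.7% did not overlap in this comparison, and no such share is given for differences between probes. For troponin C the slow minus fast difference ran the other way, at −0.074, −0.15 and −0.20 in TMEM38A KD MTs, against 0.05, 0.016 and −0.066 in control MTs, also without overlap though by a narrow gap. In NET39 KD too the troponin C values, at −0.067, −0.15 and −0.095, lay just below all control arrays. In TMEM214 KD, where both troponin T genes fell, their difference overlapped the control values, at 0.05, 0.13 and −0.13, as did that of troponin I, at −0.06, 0.01 and −0.09. For troponin C it was 0.30, 0.40 and 0.10, above every control array. Neither troponin C gene was called in any KD. Both lay near the top of the array scale, with ranks in TMEM214 KD of 3 to 4 (Tnnc1) and 21 to 50 (Tnnc2). Their normalised difference is therefore set by their places on the array. WFS1 KD MTs had 0.34, 0.51 and 0.19 for troponin I, overlapping the control arrays, and NET39 KD MTs stayed within 0.31 of 0 in all subunits. None of these shifts reached the 1.70 (T), 0.70 (I) or 1.87 (C) by which MBs differed from control MTs in the mean.

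**Figure D5:**
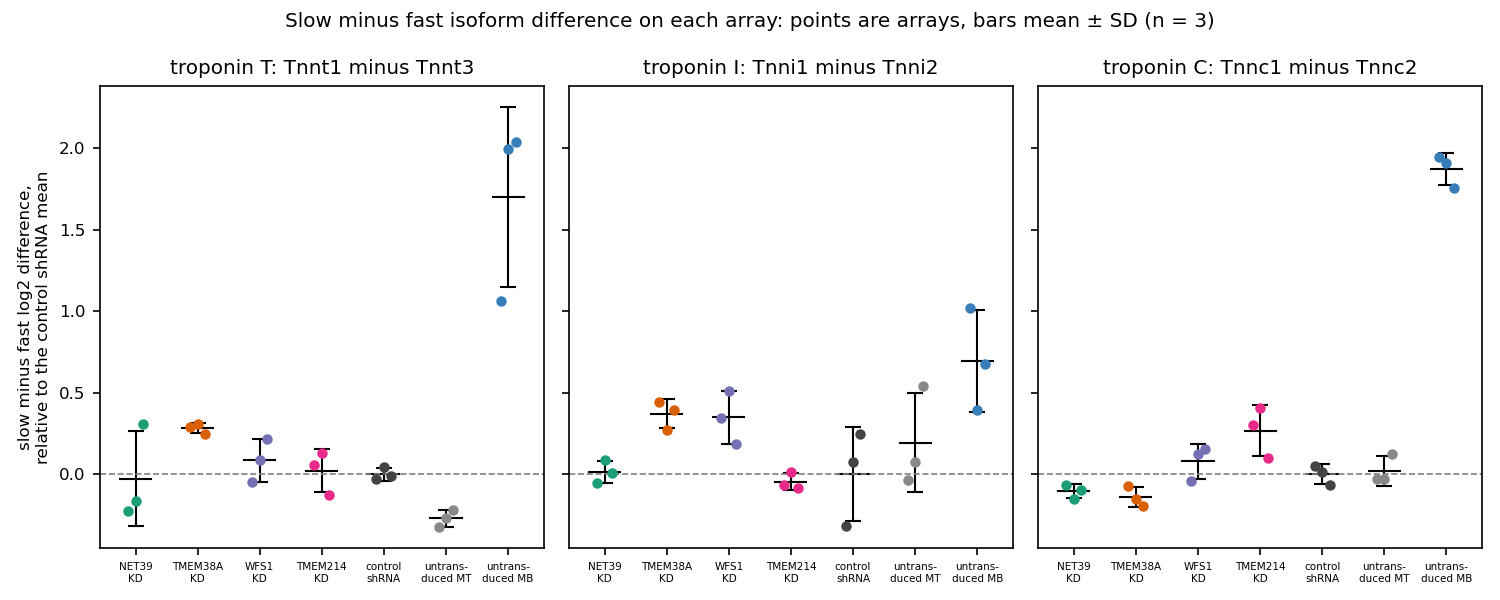
Slow minus fast log2 difference on each array relative to the control shRNA mean (vertical axis) in the 7 groups, 1 panel per subunit, with points for arrays and bars for mean ± SD (n = 3). MB arrays reach 2.04 for troponin T and 1.95 for troponin C, while MT arrays stay between −0.32 and 0.54.

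Transduction itself was examined by setting control shRNA MTs against untransduced MTs. No troponin probe was called, against 9.33% of kept probes. Tnnt3 read 13.60, 13.50 and 13.60 on control shRNA arrays, against 13.85, 14.06 and 13.97 on untransduced MT arrays, a log2 ratio of −0.39 (SE 0.08, interval −0.57 to −0.22, limma adjusted p = 0.00271) without overlap. Tnnc1 did not overlap either, making 2 of 6 against 32.2% of kept probes, and the 5 genes other than Tnnt3 lay between −0.25 and 0.11 with adjusted p of 0.112 or more. At an unadjusted p below 0.05, 2 of 6 passed (Tnnt3 and Tnnc1), against 31.3% of kept probes. Here another normalization turned the direction. Under median scaling the median ratio of all kept probes was 0.27. It called 10960 of 27870 kept probes, against 2600 in the quantile-normalised values. Of these calls 99.8% were higher in control shRNA MTs, against 50.8% in the quantile-normalised values. Among them were 5 of 6 troponins (Tnni1 at 1.23, Tnni2 at 1.01, Tnnt3 at 0.78, Tnnt1 at 0.77 and Tnnc2 at 0.52). As the shRNA arrays were all brighter than the untransduced ones, transduction and array brightness cannot be told apart. Some KD calls also depended on the choice of control. Against untransduced MTs, Tnnt3 was called lower in NET39 KD (−0.73), TMEM38A KD (−0.51) and WFS1 KD (−0.59) and Tnni1 in TMEM214 KD (−0.53), none of which was called against control shRNA. The share of kept probes called is given only over all 15 pairs of MT groups (9.26%), not for these pairs alone.

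Over the 18 MT arrays the Pearson correlations among the T and I genes were all higher than those of any T or I gene with a C gene, if narrowly at the margin (0.46 for Tnni1 with Tnni2 against 0.45 for Tnnt3 with Tnnc2). The correlation was 0.79 between Tnnt1 and Tnnt3, 0.76 between Tnnt1 and Tnni1, 0.65 between Tnnt3 and Tnni1 and 0.64 between Tnnt3 and Tnni2, while Tnnc1 had −0.14 with Tnnt1 and 0.41 with Tnnc2. The arrays share groups and a normalization, so these are descriptions with no p. Of 13089 genes of other families compared over the 18 arrays, the nearest to Tnnt1 was the muscle phosphoglycerate mutase Pgam2 (r = 0.95), followed by Rilpl1 (0.94) and Ppp4r1l-ps (0.92). The nearest to Tnnt3 was the glycolytic Gapdh (0.95), followed by Palm (0.94) and Mpi (0.93). The nearest to Tnni1 was another glycolytic gene, the aldolase Aldoa (0.91), with Myl12a (0.90) and Erich3 (0.88). The likeness was weaker for Tnni2, with Msl1 (0.85), Mllt11 (0.84) and Kcnj14 (0.80), for Tnnc1, with Atp6ap1 (0.80), Mpp2 (0.76) and Stk19 (0.75), and for Tnnc2, with Plcl2 (0.79), Tead1 (0.75) and Clca3b (0.72).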

How the data were processed

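Per the labels and the study's methods, labelled cRNA of 3 biological replicates per group was hybridised to Illumina MouseWG-6 bead arrays. The authors deposited a scanner table of intensity values, not normalized and without detection p-values or control probes, and a matrix of quantile-normalised log2 values. The submitters' processing notes name limma (version not given in the sources used here). Intensity ranks matched those of the matrix (rank correlation 1).

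Scanner intensities were corrected by normexp with an offset of 50, quantile-normalised and put on the log2 scale (limma 3.58.1, R 4.3.3). Each array's background level was its modal log2 intensity plus an upper normal limit (p of 0.05) scaled by the spread of values under the mode, and probes over it in at least 3 arrays were kept. Group means were estimated jointly from the 21 arrays (lmFit and eBayes, 18.2 degrees of freedom), with Benjamini-Hochberg adjustment over 27870 probes within a comparison. Intervals are 95%. Calls required a log2 ratio larger than 0.5 in size together with an adjusted p under 0.05, the thresholds of the study's methods, which applied them to moderated F-statistics, whereas a moderated test per comparison was used here. The p-values rest on 1 spread per probe, pooled over the replicate cultures of all 7 groups, MBs included, and the number of arrays limits the precision. For Tnnt1 the SD was 0.53 in MBs, 0.014 in TMEM214 KD MTs and 0.023 in control MTs. Its SE of 0.16 between MT groups therefore draws on the MB arrays and is not the spread of the compared MTs alone. The procedure was tested on simulated data with differences of 1 log2 unit or more. Troponin differences called between KDs or against control shRNA were smaller, and that size was not simulated.

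Probes were named by GEO's platform annotation (34885 with 1 symbol, 18 with several, 10378 with none). The members, gene lists and tests were chosen with earlier results of these data known. Named were all troponin probes, per troponin the 3 genes of other families most like it by Pearson correlation over 18 MT arrays, the shRNA targets, Tnni3, and per list the largest rise and fall. Genes outside this rule that illustrate a list were chosen after their values were seen. Deviations of same-numbered replicates correlated above 0.1 in every pair for myogenesis (0.137 to 0.275), for transduction (0.122 to 0.158) and for NET39 KD (0.173 to 0.264), but not in every pair elsewhere, and the labels give no shared source. Promoter letters and gene order are those of RefSeq (GRCm38.p6), searched with Python 3.11.15. Figures were drawn with matplotlib 3.10.9. Alternatives are given in the closing section.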

Additional observations from a re-analysis of the deposited data

Results flagged for a closer look

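In 5 of 36 tests the effects of 2 knockdowns on a troponin differed by the limma test of the difference itself, against 9.18% of such tests over all kept probes. Tnnt1 was lower in NET39 KD than in TMEM38A KD, with a log2 ratio of −0.52. TMEM38A KD exceeded TMEM214 KD by 0.76 in Tnnt1, by 0.50 in Tnnt3 and by 0.56 in Tnni1. WFS1 KD exceeded TMEM214 KD by 0.65 in Tnni1. All KD arrays of the higher group lay above all of the lower group in these 5, but troponins not called in these pairs were also found without overlap. No share without overlap over all kept probes is given for these pairs, so this adds no support to the calls. TMEM214 KD was the lower group in 4 of the 5.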

How the results depend on the processing

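The 6 myogenesis calls held under all 11 other settings and without any array of either group, with log2 ratios between 5.33 (Tnnc1, control shRNA MTs as end point) and 8.70 (Tnnt3, offset of 16). Median scaling called 5 troponins in transduction, where it called 10960 of 27870 kept probes. It called 0 in TMEM214 KD and 1 over the pairs of KDs. It reversed the transduction ratios of Tnnt1 (0.77), Tnnt3 (0.78), Tnni1 (1.23), Tnnc1 (0.43) and Tnnc2 (0.52), and Tnni1 in TMEM38A KD (−0.075) and WFS1 KD (−0.084), and it shifted the share of all calls that were higher to 18.2% in myogenesis against 47.8%, 8.56% in TMEM38A KD against 44.1%, 9.04% in WFS1 KD against 53.6%, 66.5% in NET39 KD against 53.7% and 65.8% in TMEM214 KD against 53.5%. With untransduced MTs as reference, 1 probe (Tnnt3) was called in each of NET39, TMEM38A and WFS1 KD, and 3 in TMEM214 KD (Tnnt1 −0.73, Tnnt3 −1.02 and, added by this reference, Tnni1 −0.53). No share of all kept probes called with that reference alone is given, so these counts have no base rate beside them. That reference reversed Tnnc1 in NET39 KD (−0.12), TMEM38A KD (−0.23), WFS1 KD (−0.045) and TMEM214 KD (−0.087), and Tnnc2 in TMEM38A KD (−0.069) and WFS1 KD (−0.10). The authors' values put Tnnt3 in TMEM38A over TMEM214 KD at 0.49, under the size limit. Leaving out each array gave 1 to 2 calls in TMEM214 KD, 3 to 5 over the pairs, 6 in myogenesis and 0 elsewhere. Signs turned for Tnni1 in transduction (−0.22 to 0.087, positive without untransduced MT replicate 3), Tnni2 in transduction (−0.017 to 0.19, negative without control replicate 1), Tnnc1 in TMEM38A KD (−0.086 to 0.0945, negative without control replicate 1 or TMEM38A KD replicate 1), Tnnc2 in WFS1 KD (−0.0041 to 0.23, negative without control replicate 1) and Tnnc2 in TMEM214 KD (−0.23 to 0.0043, positive without control replicate 3). No reversed ratio was called before. With the replicate block the counts were 6 in myogenesis, 2 in TMEM214 KD, 5 over the pairs and 0 elsewhere, and no call changed. The cause of these changes was not tested.

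Intensity over background limits the MB levels of Tnnt3 and Tnni1, and the top of the array scale bounds the MT levels of Tnnc1 and Tnnc2. The best ranks of Tnni2 and Tnnt1 on MT arrays were 2 and 21, and how far their place narrows their ratios was not tested.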

Other observations

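Of 6 cardiac and embryonic muscle genes tested in myogenesis, 4 were higher in MTs and 1 was lower. Myl4, the embryonic and atrial myosin light chain, averaged 14.49 ± 0.08 in MTs and 7.93 ± 0.59 in MBs (SD, n = 3 each), a log2 ratio of 6.56, whereas Tnni3 stayed at 6.29 in MTs and 6.01 in MBs. In TMEM38A KD Myh6, the cardiac alpha-myosin and a close relative of Myh7, was higher by 2.65 (limma adjusted p = 1.64e-11), and Ankrd1, a stress-responsive muscle gene, was lower, with a log2 ratio of −0.54. In WFS1 KD Myh6 (1.46) and Actc1 (0.69) were higher, and none of the 6 was called in NET39 or TMEM214 KD.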
